A study of Mus musculus with 16 samples.

Results

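The 43 genes described here are 23 genes of DNA replication and 20 genes of mitosis, followed through sorted mouse cells that carry VE-cadherin on their surface, taken at E11.5. They were taken by name, as a list of genes that proliferating cells switch on, out of the genes of the whole array, and the list was drawn up with earlier results of these data known. All 43 were found on the array, by 57 probes, while 24578 genes in all could be tested. The test could be made for 42 of them, 22 replication and 20 mitosis genes, because the single probe of Ccne2, a cyclin of the G1/S step, was well above background on 1 of the 16 arrays. Of the members, 41 were well above background on all 16 arrays, so that the filter on dim probes did not choose among them, and Aurkb was so on 11.

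Dividing cells make these transcripts in waves. Toward S phase the E2F factors, held in check by the retinoblastoma family of pocket proteins, switch on genes whose products load the replicative helicase on DNA, copy the strands and supply nucleotides. Later, from S phase into mitosis, the MuvB complex with B-Myb and FoxM1 switches on the cyclins, kinases and spindle proteins that divide the chromosomes. In resting cells the DREAM complex, built on MuvB, keeps both sets low. Blood precursors of the embryo and yolk sac are known to divide quickly, and endothelial cells slow down as vessels mature.

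Levels came from 1-colour arrays of 8 groups with 2 arrays in each, and a group is 1 tissue, gate and genotype. VE-cadherin, the product of Cdh5, joins endothelial cells at their junctions, and cells positive for it were sorted without CD45 (the gate called P3) or with CD45 (P4), the leukocyte surface protein encoded by Ptprc, from the embryo proper or the yolk sac. Controls were compared with embryos labelled Tie-2-Etv2, in which an Etv2 transgene is turned on by a Tie-2 Cre transgene. Etv2 is an ETS-family factor of the earliest blood and endothelial cells, and Tie-2 Cre is active in endothelial cells and in blood cells that come from them, so both gates can carry the active transgene. All animals were of a mixed strain background, B6/CBA and others. The labels do not say if a pair of arrays in 1 group stands for different embryos or for pools, so the spread behind each p-value is that between these arrays and may be technical. Titles of the CD45- transgenic samples of the embryo name only Tie-2, and their genotype entry puts them in the Tie-2-Etv2 group.

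A level is the log2 of the processed signal minus the 75th percentile of the array, so every value is relative to the rest of that array. A difference is given on that log2 scale with the standard error of a limma fit over all 16 arrays, and a gene is called where its Benjamini-Hochberg adjusted p over 24578 genes, from limma and two-sided, was below 0.05. Between 50.6% and 59.9% of probes were well above background on an array, no spot was saturated, and the correlation across genes within a group was 0.975 to 0.992. All embryo arrays lay on 1 slide and all yolk sac arrays on another, so tissue and slide cannot be told apart, and each gate lay in its own row of the slide, so that gate and array position cannot be told apart either. Etv2 itself rose in the yolk sac by 6.36 ± 0.96 in CD45- cells and by 6.08 ± 0.96 in CD45+ cells (limma adjusted p = 0.000508 and 0.00083). In the embryo it was higher on every transgenic array than on every control array of its gate, with differences of 2.50 and 3.09 that did not pass (adjusted p = 0.573 and 0.124). Cdh5 was at 5.88 and 5.69 on the CD45- control arrays of the embryo and at 0.33 and -0.66 on its CD45+ control arrays. The CD45+ control cells thus held much less Cdh5 transcript than the CD45- cells, though it was well above background on both CD45+ arrays.

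Across the 8 groups the replication and mitosis genes moved together, over a wider range for the replication genes. With each gene centred on its mean over the 16 arrays, the median of the 22 replication genes was lowest on the CD45- control arrays of the yolk sac, at -0.75 and -0.72, followed by those of the embryo at -0.63 and -0.46. It was highest on the CD45+ transgenic arrays of the yolk sac, at 0.70 and 0.67, and next on the CD45- transgenic arrays of the yolk sac, at 0.56 and 0.39. In between lay the transgenic embryo arrays, at -0.31 and -0.27 without CD45 and at 0.25 and 0.31 with it, and the CD45+ controls, at 0.07 and 0.03 in the embryo and at 0.13 and -0.01 in the yolk sac. The CD45+ controls of the tissues overlapped, and no other neighbours in this order did.

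Mitosis genes followed the same order of group means over a narrower range, with more overlap between neighbours. Their median was -0.44 and -0.53 on the CD45- control arrays of the yolk sac and 0.47 and 0.48 on its CD45+ transgenic arrays. On the CD45- control arrays of the embryo it was -0.59 and -0.23, a wider gap than between the arrays of any other group, which took in both yolk sac values. The mitosis median stood above the replication median on all 4 CD45- control arrays, by 0.04 to 0.31. It stood below it on all 4 transgenic arrays of the yolk sac, with differences of -0.23 to -0.07. The same held on every CD45+ array of the embryo, at -0.23 and -0.04 in controls and -0.09 and -0.02 in transgenic cells. Gene by gene, the CD45+ transgenic yolk sac group was highest of the 8 for 18 of 22 replication and 14 of 20 mitosis genes. The CD45- control yolk sac group was the lowest for 19 and 10. The shares of all genes highest or lowest in these groups were not counted, so these counts have no background. These orders across tissues rest on levels set across slides.

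**Figure D1:**
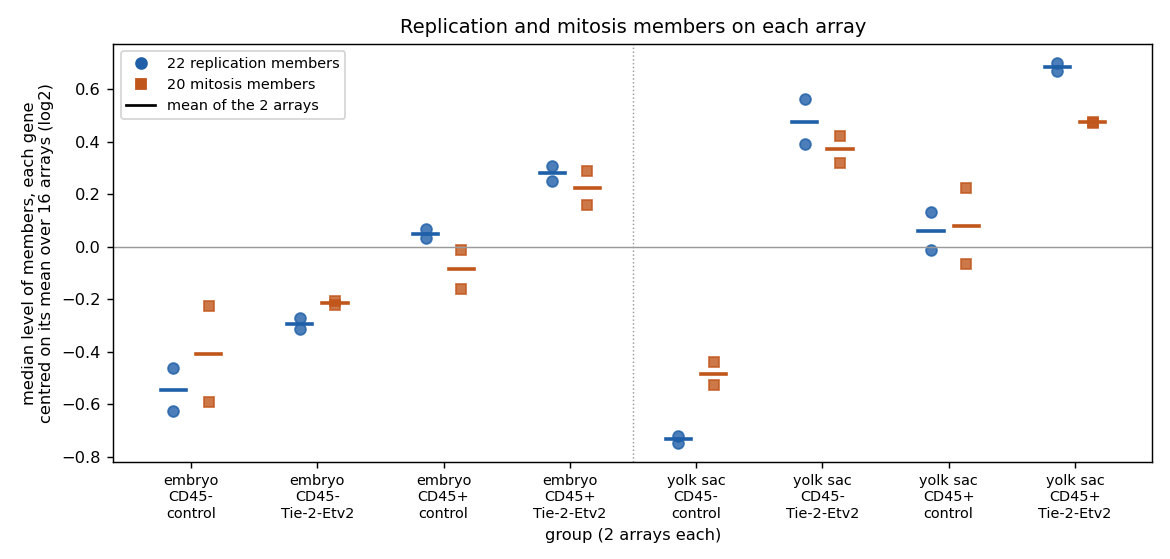
Median level of the 22 replication members (circles) and the 20 mitosis members (squares) on each of the 16 arrays, each gene centred on its mean over the arrays (log2, y axis), by group (x axis); lines are means of the 2 arrays. Of the control and transgenic groups of 1 population, those of yolk sac CD45- cells lie furthest apart, at -0.75 and -0.72 for replication genes in controls and at 0.56 and 0.39 in Tie-2-Etv2 cells.

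The transgene went with higher levels of nearly all members in CD45- cells of the yolk sac. Of 22 replication genes 21 rose and none fell, with a median difference of 1.20, and of 20 mitosis genes 15 rose and none fell, with a median difference of 0.87. Over all genes tested 26.1% rose and 15.8% fell in this comparison, with a median difference of 0.18. Replication and mitosis genes were thus called higher at shares above the background.

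All 12 genes of origin licensing and the helicase rose. Cdc45, which joins the Mcm2 to Mcm7 ring and the GINS complex to make the active helicase, was at -0.64 and -0.44 on the control arrays and at 1.19 and 0.93 on the transgenic arrays, a difference of 1.60 ± 0.16 or 3.03-fold (limma adjusted p = 5e-05). Mcm10, which helps to start the helicase, was at 2.51 and 2.47 against 4.02 and 4.13, higher by 1.58 ± 0.21 (adjusted p = 0.000247). The groups did not overlap for either gene, and the gap between them was several times that between arrays of a group. For called genes, here and below, such a gap goes with the call and is no further support. Its share over all genes was not counted. Mcm2, a subunit of the ring, rose from 3.52 and 3.58 to 4.76 and 4.55, by 1.11 ± 0.15 (adjusted p = 0.000241). The other 5 ring subunits rose by 0.84 (Mcm6) to 1.38 (Mcm5), the loading factors Cdc6 and Cdt1 by 1.49 and 1.26, and the GINS subunits Gins1 and Gins2 by 1.35 and 1.05.

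DNA synthesis and nucleotide supply rose in 7 of 8 genes. Pola1, the catalytic subunit of the polymerase that lays down primers, was at 1.59 and 1.52 in controls and at 3.44 and 3.58 in transgenic cells. Its difference of 1.95 ± 0.24, or 3.87-fold, was the largest of all members (limma adjusted p = 0.000165). Its partner Prim1, the primase, rose by 1.47 ± 0.15, and the sliding clamp Pcna went from 5.76 and 5.66 to 7.00 and 6.89, by 1.24 ± 0.15 (adjusted p = 0.000169). The clamp loader subunit Rfc4 rose by 1.38, the ribonucleotide reductase subunits Rrm1 and Rrm2 by 1.17 and 0.96, and Tyms, thymidylate synthase, by 0.86. Ung, the glycosylase that removes uracil from DNA, was the exception: its arrays overlapped, at 5.55 and 5.81 in controls and 5.54 and 5.88 in transgenic cells, with a difference of 0.03 ± 0.29 (adjusted p = 0.956).

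Both G1/S regulators that could be tested rose. Ccne1, the cyclin that drives entry into S phase, was at 3.21 and 3.31 against 4.24 and 4.15, a difference of 0.94 ± 0.14 (limma adjusted p = 0.000532), and E2f1 was at 2.56 and 2.36 against 3.39 and 3.18, a difference of 0.83 ± 0.17 (adjusted p = 0.00321). No array of 1 group reached the other for these genes. Their rises were smaller than the replication median.

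Among mitosis genes, 6 of 7 cyclins and kinases rose. Cdk1, the mitotic kinase, was at 2.86 and 2.97 in controls and at 3.69 and 3.89 in transgenic cells, higher by 0.88 ± 0.19 (limma adjusted p = 0.00372). Its partners Ccnb1 and Ccnb2 rose by 0.95 ± 0.20 and 1.17 ± 0.15, from 4.25 and 4.32 to 5.29 and 5.17 for Ccnb1. Ccna2, the cyclin of S phase and early mitosis, and the kinase Plk1 rose by 0.78 and 0.94, and Aurka, a spindle pole kinase, did not pass at 0.64 ± 0.31 (adjusted p = 0.129). Aurkb, the kinase of the chromosomal passenger complex, was called higher, with measured means of -6.28 and -4.56 (limma adjusted p = 0.0148). It was well above background on neither control array and on only 1 of the transgenic arrays. A bound on its rise came to 1.25-fold, which is not a strict minimum because the transgenic mean includes a dim array. That call held in 11 of 14 alternatives. Here and below, such a bound sets the brighter group's mean against the higher of the dim probe's own signal and the lowest signal well above background, taken on each array.

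Checkpoint and centromere genes rose in 6 of 7. Bub1, a kinase of the spindle checkpoint, was at 1.70 and 1.64 against 3.01 and 2.89, a difference of 1.28 ± 0.16 (limma adjusted p = 0.000175). Mad2l1, which with Bub1b holds back the anaphase-promoting complex, rose by 1.22 ± 0.17, Bub1b by 1.08, Cdc20, the activator of that complex, by 1.03, Cenpa, the centromeric histone, by 0.77 and Birc5, the passenger protein survivin, by 0.75. The motor Cenpe did not pass, at 0.49 ± 0.21. Of the 6 spindle and chromosome genes 3 rose: Top2a, the topoisomerase of condensing chromosomes, from 2.95 and 3.15 to 4.23 and 4.08 by 1.10 ± 0.15, Mki67, which encodes the proliferation marker Ki-67, from 5.37 and 5.40 to 6.24 and 6.20 by 0.84 ± 0.14, and Tpx2, a factor of spindle assembly, by 0.87. The spindle motor Kif11, Nusap1 and Kif23, a motor of cytokinesis, did not pass, at 0.73 ± 0.29, 0.57 ± 0.22 and -0.0017.

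**Figure D2:**
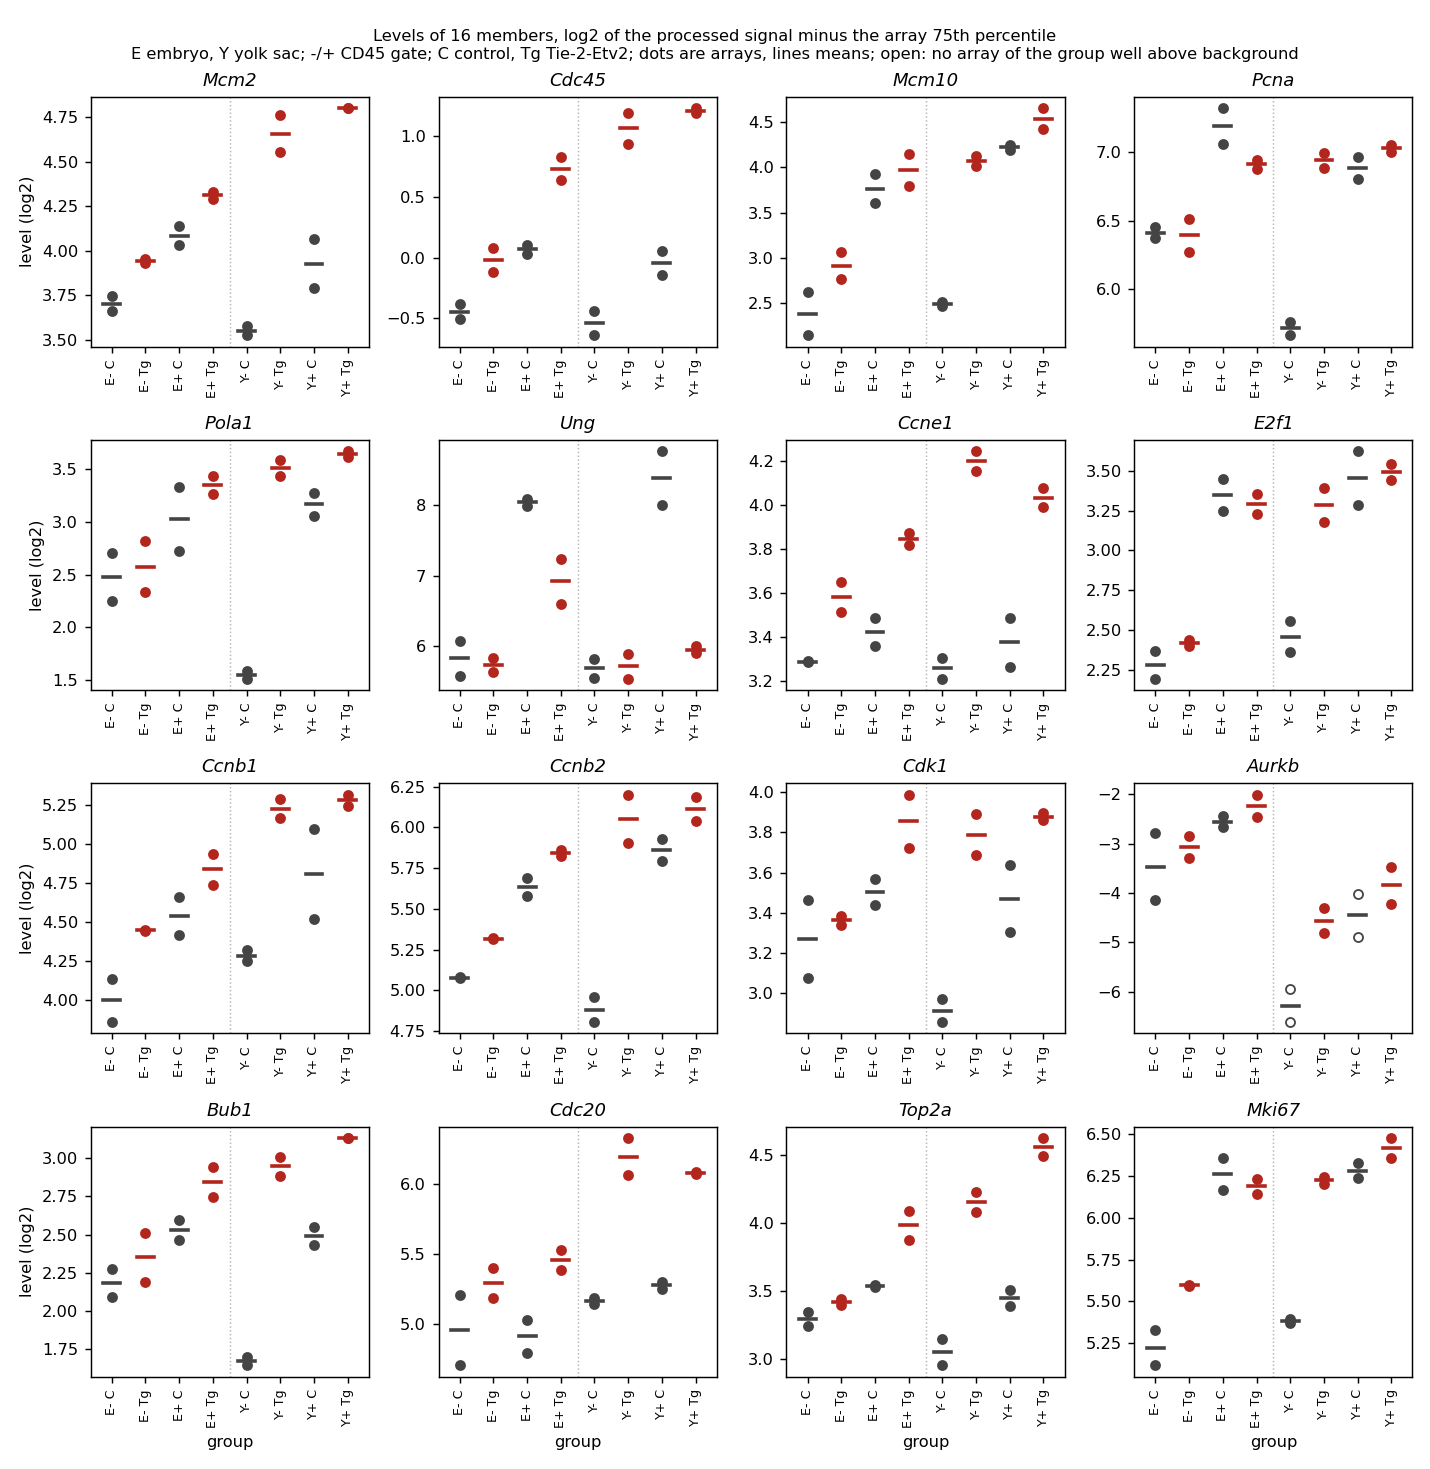
Levels of 16 members on each array (y axis, log2 of the processed signal minus the 75th percentile of the array), by group (x axis); dots are arrays, lines are means of 2, red is Tie-2-Etv2, grey is control, and open dots mark groups with no array well above background. In the yolk sac CD45- groups the transgenic arrays lie above the controls in every panel except that of Ung.

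Markers of other cells moved in the same comparison. All 12 pan-leukocyte genes rose, their mean level going from between -2.52 and -2.21 on the control arrays to between 2.92 and 3.26 on the transgenic arrays, with Ptprc not well above background on either control array and at least 3.27-fold higher. Of 11 megakaryocyte genes 10 rose, with mean levels of -2.04 to -1.62 against 3.98 to 4.54. Of 14 endothelial genes 9 fell and none rose, from 5.72 and 5.84 to 4.07 and 4.38, Cdh5 among them (-1.01 ± 0.30), and 4 of 10 mesenchymal and mural genes fell. The mean of the 12 macrophage genes lay between -3.15 and -2.35 on all 4 arrays, with 2 genes higher and 3 lower, erythroid genes were higher in 3 of 12 and lower in 1, and yolk sac endoderm genes lower in 1 of 10. The part of these cells in the member differences was not tested, and in RNA from a mixed sort more dividing cells cannot be told apart from more of these transcripts per cell.

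The split of calls over all genes depended on scaling, and the members moved with it. On probes detected on all arrays as the scaling base, the median of all genes went from 0.18 to -0.14, and 42.0% of called genes were higher in place of 62.3%. This scaling shifts all genes of an array alike, so it cannot change how far members lie from the median of all genes. Set against that median, the replication median stood at 1.02, and at 0.78 after quantile normalization. The mitosis median stood at 0.70, and at 0.48 after quantile normalization, where 9 mitosis genes rose.

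**Figure D3:**
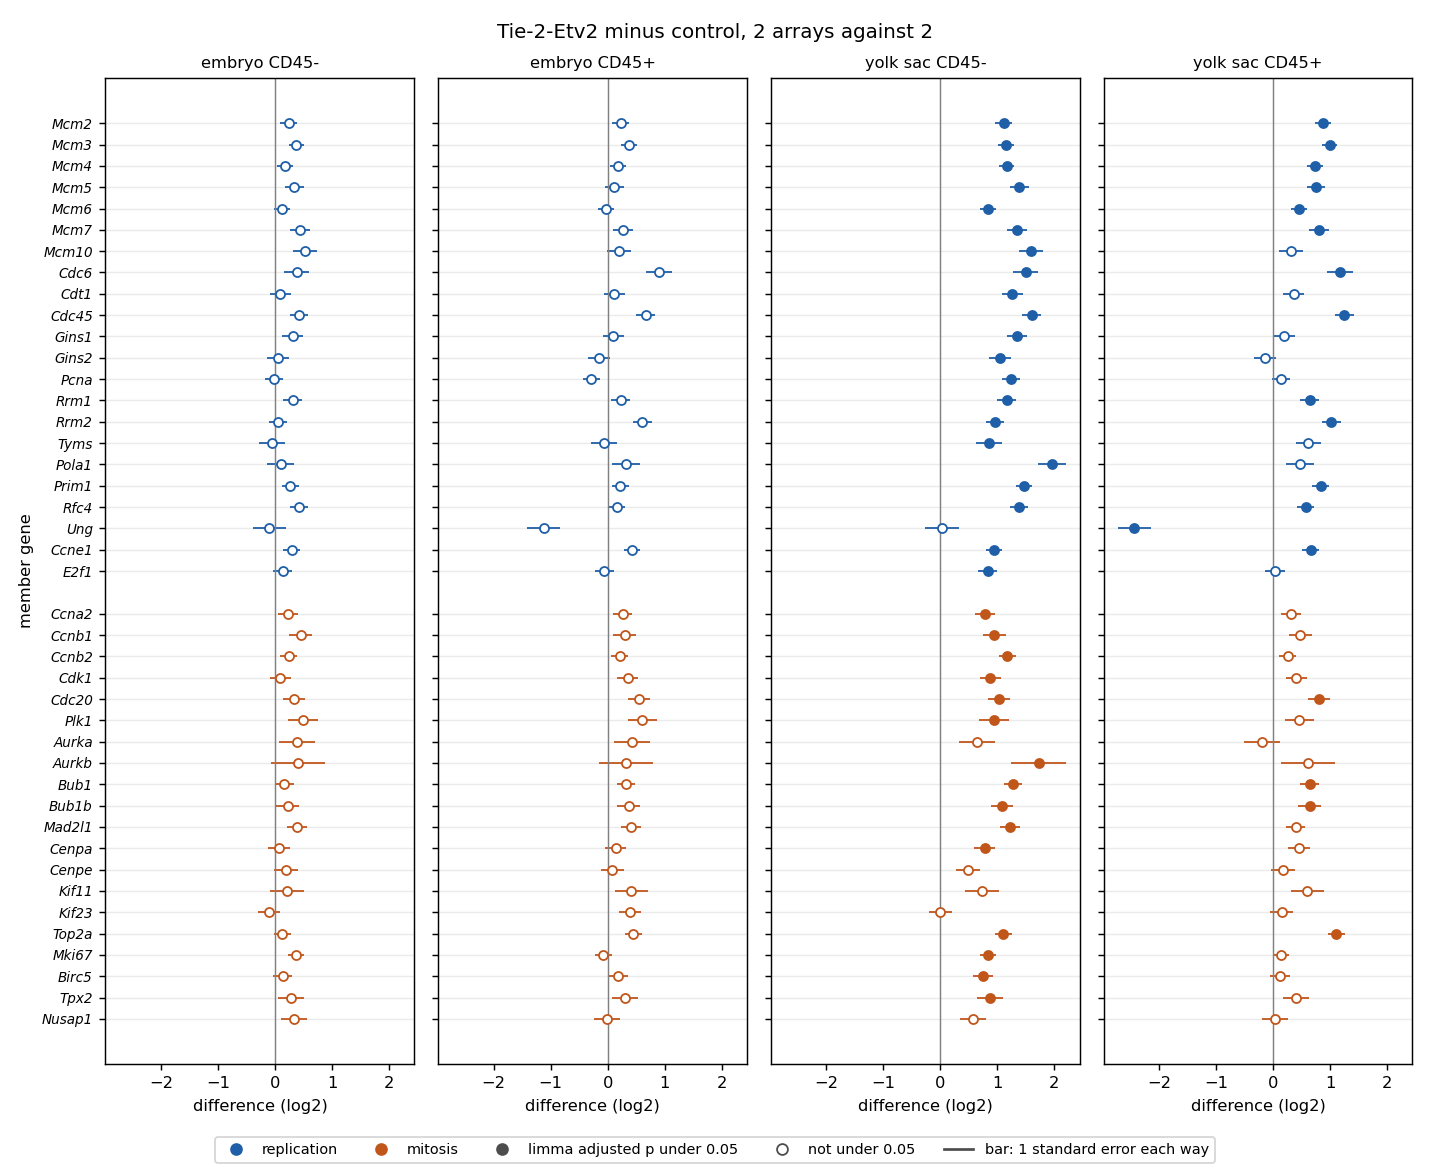
Difference between Tie-2-Etv2 and control cells (x axis, log2) for each of 42 members (y axis) in the 4 cell populations; blue marks replication, orange mitosis, bars are 1 standard error each way, and filled dots passed at a limma adjusted p of 0.05. Filled dots stand only in the yolk sac panels: 36 in CD45- cells and 18 in CD45+ cells.

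Promoters of the members are shown because members of a set moved together. RefSeq promoter windows, 250 bases before to 50 after a gene start on GRCm38.p6, were given for 36 members, 19 replication and 17 mitosis genes (not for Mcm4, Gins1, Gins2, Ccne2, Ccna2, Aurkb and Tpx2). They were searched on both strands for 3 kinds of word, none of which contains another: the E2F words TTTCCCGC, TTTGGCGC, TTTCGCGC and TTTGCCGC, the CCAAT box CCAAT, and TTTGAA, the core of the cell cycle homology region that MuvB complexes bind. An E2F word stood in the windows of 7 of 19 replication genes (36.8%) and of 1 of 17 mitosis genes (5.88%), against 2.6% of 27025 genes. CCAAT and TTTGAA stood together in 11 of 17 mitosis genes (64.7%) and 2 of 19 replication genes (10.5%), against 7.97% of all genes. With or without the other word, TTTGAA stood in 64.7% of the mitosis genes, 10.5% of the replication genes and 20.2% of all genes, and CCAAT in 82.4%, 63.2% and 41.1%. A match is a run of letters and not a measured site, and no binding was measured here.

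The 180 bases upstream of the gene start are printed for the replication genes Pola1 and Cdc6, with the E2F word in capitals, and for the mitosis genes Ccnb2, Top2a, Cdc20 and Cdk1, with CCAAT boxes and TTTGAA words of either strand in capitals. All are from RefSeq on GRCm38.p6, 5′ to 3′ on the strand of the gene.
Pola1 (chrX:93632156-93632335, minus strand): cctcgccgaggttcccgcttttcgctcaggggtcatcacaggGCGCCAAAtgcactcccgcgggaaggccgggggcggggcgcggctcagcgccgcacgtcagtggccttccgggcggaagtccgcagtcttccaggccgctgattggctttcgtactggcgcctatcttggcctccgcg
Cdc6 (chr11:98907971-98908150, plus strand): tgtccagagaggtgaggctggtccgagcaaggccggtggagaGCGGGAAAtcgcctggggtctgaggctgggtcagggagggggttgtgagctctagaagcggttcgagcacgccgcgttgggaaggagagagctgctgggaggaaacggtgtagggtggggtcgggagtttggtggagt
Ccnb2 (chr9:70421555-70421734, minus strand): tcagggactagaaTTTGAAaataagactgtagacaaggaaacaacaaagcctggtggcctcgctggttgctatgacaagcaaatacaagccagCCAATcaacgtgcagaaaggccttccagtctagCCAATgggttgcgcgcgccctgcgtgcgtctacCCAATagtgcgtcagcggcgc
Top2a (chr11:99024190-99024369, minus strand): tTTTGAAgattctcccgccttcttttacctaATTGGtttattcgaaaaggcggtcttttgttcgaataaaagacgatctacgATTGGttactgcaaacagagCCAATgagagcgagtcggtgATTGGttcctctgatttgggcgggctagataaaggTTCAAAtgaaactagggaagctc
Cdc20 (chr4:118437344-118437523, minus strand): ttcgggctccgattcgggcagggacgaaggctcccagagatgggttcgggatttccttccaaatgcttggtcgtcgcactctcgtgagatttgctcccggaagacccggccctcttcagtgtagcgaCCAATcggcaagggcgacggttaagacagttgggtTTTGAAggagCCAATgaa
Cdk1 (chr10:69352913-69353092, minus strand): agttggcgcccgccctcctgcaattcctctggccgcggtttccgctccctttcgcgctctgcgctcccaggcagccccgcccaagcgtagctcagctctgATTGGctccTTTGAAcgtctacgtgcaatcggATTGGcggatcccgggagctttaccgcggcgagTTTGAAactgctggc
These 6 were chosen from the named members with such words upstream, by the largest absolute difference in yolk sac CD45- cells. Their rises there thus go with the choice and do not link the words to the differences. Pola1 and Cdc6 rose by 1.95 and 1.49, and Ccnb2, Top2a, Cdc20 and Cdk1 by 1.17, 1.10, 1.03 and 0.88. Members without the words rose as well: E2f1, Ccne1 and Tyms held none of them in the window.

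In CD45+ cells of the yolk sac fewer members rose with the transgene. Of 22 replication genes 13 rose, 1 fell and the median difference was 0.63, and of 20 mitosis genes 4 rose and none fell, with a median of 0.41. Over all genes 18.1% rose and 14.4% fell, with a median of 0.04. The mitosis share, 4 of 20, was thus near the background, and the replication share above it. All 13 replication and all 4 mitosis genes that rose here also rose in CD45- cells, where they made up 61.9% and 26.7% of those that rose. In CD45- cells 21 of the 22 replication genes rose, and the exception, Ung, fell here. The overlap of replication genes was therefore fixed by these counts. With 15 of the 20 mitosis genes risen in CD45- cells, an overlap of all 4 says little either.

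The ring subunits Mcm2 to Mcm7, Cdc6 and Cdc45 made up the 8 licensing and helicase genes that rose. Cdc45 was at -0.15 and 0.05 on the control arrays and at 1.23 and 1.18 on the transgenic arrays, higher by 1.25 ± 0.16 or 2.38-fold (limma adjusted p = 0.000267). Cdc6 was at 0.82 and 0.82 against 2.02 and 1.97, higher by 1.18 ± 0.22 (adjusted p = 0.00243), and Mcm2 at 3.79 and 4.06 against 4.80 and 4.80, higher by 0.87 ± 0.15 (adjusted p = 0.00124). The transgenic arrays lay close to each other and clear of the controls for all 3. Mcm10, Cdt1, Gins1 and Gins2 did not pass, at 0.32, 0.36, 0.19 and -0.14.

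In DNA synthesis, Rrm2 was at 4.76 and 4.82 against 5.83 and 5.79, higher by 1.02 ± 0.16 (limma adjusted p = 0.000879), and Rrm1, Prim1 and Rfc4 rose by 0.64, 0.84 and 0.57. Pcna, at 6.80 and 6.97 against 7.05 and 7.01, did not pass, with a difference of 0.14 ± 0.15 (adjusted p = 0.524), nor did Pola1 (0.48) and Tyms (0.62). Ung fell: it was at 8.76 and 8.01 on the control arrays and at 6.01 and 5.90 on the transgenic arrays, a difference of -2.43 ± 0.29 or 5.39-fold lower (adjusted p = 0.000182). Of the G1/S regulators Ccne1 rose by 0.66 ± 0.14, from 3.49 and 3.26 to 3.99 and 4.08, while E2f1 overlapped between the groups, at 3.62 and 3.29 in controls and 3.54 and 3.44 in transgenic cells.

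The 4 mitosis genes that rose were Top2a, Cdc20, Bub1 and Bub1b. Top2a went from 3.51 and 3.39 to 4.49 and 4.63, by 1.11 ± 0.15 (limma adjusted p = 0.000322), beside 1.10 in CD45- cells. Cdc20 went from 5.30 and 5.25 to 6.09 and 6.07, by 0.80 ± 0.19 (adjusted p = 0.00866), and Bub1 and Bub1b rose by 0.64 and 0.64. No cyclin or kinase of the 7 passed: Ccnb1 was at 5.10 and 4.52 against 5.25 and 5.32, with a difference of 0.47 ± 0.20 (adjusted p = 0.102), and Cdk1 at 0.41 ± 0.19 (adjusted p = 0.123). Mki67 was at 6.23 and 6.32 against 6.35 and 6.47, with a difference of 0.14 ± 0.14 (adjusted p = 0.509).

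Beside these values, 11 of 12 macrophage genes fell in the yolk sac CD45+ comparison, from mean levels of 5.50 and 5.83 to 1.91 and 2.23, with Csf1r, the macrophage growth factor receptor, at -3.33 ± 0.26. Endothelial genes rose in 11 of 14, from -0.57 and -0.12 to 2.00 and 2.22, and 8 of 11 megakaryocyte genes rose and 3 fell, with Itga2b, which encodes CD41, at 7.17 ± 0.47. Of the other lists, 4 of 12 leukocyte genes fell and 2 rose, 3 of 10 mesenchymal and mural genes fell and 1 rose, 1 of 12 erythroid genes rose and 1 fell, and no yolk sac endoderm gene was called. The part of these cells in the member values was not tested. Fitted on these 4 arrays alone, 5 replication genes and 1 mitosis gene rose, and without transgenic replicate 1, transgenic replicate 2 or control replicate 2 the mitosis count was 1, 2 and 2.

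In the embryo proper no member passed limma's adjusted threshold in either gate. At an unadjusted limma p below 0.05, 5 replication and 2 mitosis genes were higher and none lower in CD45- cells. In CD45+ cells 5 replication and 4 mitosis genes were higher and 1 replication gene lower. The share of all genes at that unadjusted threshold was not counted, so these counts have no background. Shares of all genes given below are at the adjusted threshold. In CD45- cells the median difference was 0.25 for replication genes, 19 of 22 being positive, and 0.23 for mitosis genes, 19 of 20 being positive, while 1.25% of all genes rose, 0.0325% fell and the median was -0.03. Mcm10 was at 2.15 and 2.62 on the control arrays and at 2.76 and 3.06 on the transgenic arrays, with a difference of 0.53 ± 0.21 that was the largest among the replication genes (limma adjusted p = 0.617). Mcm2 was at 3.66 and 3.74 against 3.95 and 3.93 (0.24 ± 0.15, adjusted p = 0.912). For these genes every transgenic array lay above every control array, but neither difference passed. Plk1 showed the largest mitosis difference, 0.50 ± 0.26 (adjusted p = 0.835), with control arrays at 4.13 and 4.74 and transgenic arrays at 4.97 and 4.90. Pcna was at 6.45 and 6.37 against 6.51 and 6.27, Ccne1 at 3.29 and 3.29 against 3.65 and 3.51, E2f1 at 2.37 and 2.19 against 2.40 and 2.44 and Mki67 at 5.12 and 5.33 against 5.60 and 5.59. The arrays of Pcna overlapped, and those of Ccne1, E2f1 and Mki67 did not. With 2 arrays a group such a gap often arises without any effect, and its share over all genes was not counted. Marker genes did move there: 8 of 12 leukocyte and 8 of 11 megakaryocyte genes rose, Itga2b by 4.33 ± 0.47, while none of 14 endothelial genes was called. Their part in the member values was not tested.

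In CD45+ cells of the embryo the medians were 0.19 for replication and 0.32 for mitosis genes, while 2.31% of all genes rose and 0.732% fell, with a median of -0.03. Cdc6, at 0.35 and 0.90 against 1.38 and 1.68, and Cdc45, at 0.10 and 0.03 against 0.64 and 0.82, came closest, with differences of 0.90 ± 0.22 and 0.66 ± 0.16 (limma adjusted p = 0.0601 and 0.0591). Ung was lower on both transgenic arrays, 7.24 and 6.60 against 8.09 and 7.99, with a difference of -1.12 that did not pass (adjusted p = 0.0741). Plk1 and Cdc20 had the largest mitosis differences, 0.61 ± 0.26 and 0.55 ± 0.19 (adjusted p = 0.281 and 0.175). Top2a was at 3.54 and 3.53 against 3.87 and 4.09, with a difference of 0.45 ± 0.15 (adjusted p = 0.151). Ccne1 stood at 0.42 ± 0.14, Cdk1 at 0.35 ± 0.19 and Ccnb1 at 0.30 ± 0.20. Pcna was at -0.28 ± 0.15, E2f1 at -0.06 ± 0.17 and Mki67 at -0.07 ± 0.14, and none of these genes was called. Beside them 7 of 14 endothelial and 6 of 11 megakaryocyte genes rose, 1 of 12 macrophage genes fell and no leukocyte gene was called. The counts of 0 were 2 higher and 1 lower among replication genes under a trended robust prior and under normexp background correction, and with normexp 58.5% of the genes called over the whole array were higher in place of 75.9%. They were 1 and 1 after quantile normalization, and without control replicate 2 of this gate 1 replication gene was higher. The embryo differences rest on 2 arrays a group, and a p above 0.05 does not show that levels were alike.

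The difference between tissues was tested directly. In CD45- cells the yolk sac effect exceeded the embryo effect for 22 members, 18 replication and 4 mitosis genes, and was below it for none, against 9.54% and 6.4% of all genes. All 12 licensing and helicase genes were among the 18. Pola1 differed most, by 1.86 ± 0.34 (limma adjusted p = 0.00792), with effects of 1.95 in the yolk sac and 0.10 in the embryo. Pcna followed at 1.26 ± 0.22 (adjusted p = 0.00613), with 1.24 against -0.02, and Prim1 at 1.20 ± 0.21 (adjusted p = 0.006). The mitosis genes were Bub1 (1.11), Top2a (0.98), Ccnb2 (0.93) and Mad2l1 (0.83). Mki67, at 0.47 ± 0.20, and Cdk1, at 0.78 ± 0.26, did not pass. In this contrast 12 of 12 leukocyte, 5 of 11 megakaryocyte, 3 of 12 macrophage genes and 1 of 12 erythroid genes were higher, and 7 of 14 endothelial, 2 of 10 mesenchymal and mural genes and 1 of 12 macrophage genes were lower. Their part in the member values was not tested. The count of 22 members depended on single arrays and on scaling: it was 8 with detected-probe scaling, where 31.8% of called genes were higher in place of 59.9%, and 8 after quantile normalization (48.2%). Detected-probe scaling took the median of all genes from 0.22 to -0.12. The replication median stood 0.75 above that of all genes, and 0.52 above it after quantile normalization. The mitosis median stood 0.39 above that of all genes, and only 0.15 above it after quantile normalization. Without embryo CD45- transgenic replicate 2 or yolk sac CD45- transgenic replicate 1 the count was 6, without yolk sac control replicates 1 and 2 it was 8 and 7, and without embryo transgenic replicate 1 and control replicate 2 it was 9 and 13.

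In CD45+ cells no member's effect differed between tissues by that limma test, against 1.1% of all genes higher in the yolk sac and 2.03% lower. At an unadjusted limma p below 0.05, 7 replication genes and 1 mitosis gene were higher and 1 replication gene lower. The share of all genes at that unadjusted threshold was not counted. Detected-probe scaling moved the share of higher calls from 35.1% to 24.6%. The replication median of this difference was 0.41 and the mitosis median 0.09, with all genes at 0.09, and the mitosis median was -0.02 with detected-probe scaling and -0.01 after quantile normalization. Without yolk sac CD45+ control replicate 2, 1 member was called lower. Mcm2 came to 0.65 ± 0.21 (limma adjusted p = 0.128) and Ung to -1.31 ± 0.42 (adjusted p = 0.125).

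Between gates, the transgene's effect in the yolk sac was lower in CD45+ than in CD45- cells for 12 members, 9 replication and 3 mitosis genes, and higher for none, against 10.5% and 7.89% of all genes. Ung differed most, by -2.46 ± 0.42 (limma adjusted p = 0.00251), the gene that fell in CD45+ cells and did not pass in CD45- cells. Pola1 differed by -1.48 ± 0.34 (adjusted p = 0.0135), Mcm10 by -1.27 ± 0.30, Gins2 by -1.19, Gins1 by -1.15 and Pcna by -1.09. Cdt1, Rfc4 and E2f1 completed the replication genes, at -0.90, -0.81 and -0.79. The mitosis genes were Ccnb2 (-0.92), Mad2l1 (-0.82) and Mki67 (-0.70). At 3 of 20, their share was near the 10.5% of all genes called lower. For Top2a the difference between gates was 0.01 ± 0.21 and did not pass (adjusted p = 0.991). In the transgenic cells Pcna was at 7.00 and 6.89 without CD45 and at 7.05 and 7.01 with it, and in controls at 5.76 and 5.66 without it and 6.80 and 6.97 with it, so that the gates lay further apart in the controls. The effect was likewise lower for 12 of 12 leukocyte and 9 of 12 macrophage genes, and higher for 13 of 14 endothelial genes. It was also lower for the megakaryocyte genes Bin2, Gp6, P2rx1, Pf4, Ppbp and Rgs18 and the erythroid genes Epor and Tfrc. No other gene of these lists was called. Their part in the member values was not tested.

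That count was 5 with detected-probe scaling, which moved the share of higher calls over all genes from 42.9% to 55.5% and the median of all genes from -0.14 to 0.09, and 6 after quantile normalization. The replication median stood at -0.44 and the mitosis median at -0.33 against the median of all genes. The count was 7 without CD45- control replicate 1, 5 without CD45- control replicate 2, 5 without CD45- transgenic replicate 1, and 6 and 5 without CD45+ transgenic replicates 1 and 2. Ung kept its call in all 18 alternatives. In the embryo no member's effect differed between gates by limma's adjusted p, against 0.57% of all genes higher and 0.574% lower in CD45+ cells. The medians were -0.06 for replication and 0.05 for mitosis genes. At an unadjusted limma p below 0.05, 1 replication gene was higher and 1 lower, and the share of all genes there was not counted.

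Among control cells, CD45+ cells held more of the replication transcripts than CD45- cells in both tissues. In the embryo 16 of 22 replication genes were higher and none lower, with a median difference of 0.61, and 4 of 20 mitosis genes were higher, with a median of 0.34. Over all genes 20.0% were higher and 16.6% lower, with a median of 0.08, so the mitosis count was at the background. In the yolk sac 17 replication and 10 mitosis genes were higher and none lower, with medians of 0.84 and 0.59, against 22.6% and 15.8% of all genes and a median of 0.20. Of the replication genes 15 were higher in both tissues, which is 93.8% of the embryo's and 88.2% of the yolk sac's. All 4 mitosis genes of the embryo were among the 10 of the yolk sac. Most replication genes were higher in each tissue, so much of their overlap was set by these counts. The overlap over all genes was not counted. This yolk sac comparison and the transgene comparison in CD45- cells use the same 2 CD45- control arrays.

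Ung stood highest. It was at 6.08 and 5.58 on CD45- and 8.09 and 7.99 on CD45+ control arrays of the embryo, a difference of 2.21 ± 0.29 or 4.64-fold (limma adjusted p = 0.000168). In the yolk sac it was at 5.55 and 5.81 without CD45 and 8.76 and 8.01 with it, a difference of 2.70 ± 0.29 or 6.49-fold (adjusted p = 3.83e-05). Its single probe lies at chr5:114588731-114588790 on mm9, as the scanner files give it. Its 4 CD45+ control arrays were the highest of the 16, which was so for no other member. Macrophage genes showed the same order over the 4 CD45+ groups, with mean levels of 5.27 and 5.28 in embryo and 5.50 and 5.83 in yolk sac CD45+ controls, and of 4.10 to 4.96 and 1.91 to 2.23 in the transgenic CD45+ cells of these tissues. Their part in the Ung values was not tested.

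Mcm10 came next among replication genes, with 2.15 and 2.62 against 3.61 and 3.92 in the embryo (1.38 ± 0.21, limma adjusted p = 0.000448) and 2.51 and 2.47 against 4.25 and 4.19 in the yolk sac (1.73 ± 0.21, adjusted p = 8.7e-05). Gins1 differed by 1.15 ± 0.18 and 1.49 ± 0.18, Pcna by 0.78 ± 0.15 and 1.18 ± 0.15, and E2f1 by 1.07 ± 0.17 and 1.00 ± 0.17, in embryo and yolk sac. Pola1 differed by 1.61 ± 0.24 in the yolk sac (adjusted p = 0.000382) and by 0.55 ± 0.24 in the embryo, where it did not pass (adjusted p = 0.108). Rrm1, the large subunit of ribonucleotide reductase, was higher by 0.57 ± 0.16 and 0.80 ± 0.16. Its partner subunit Rrm2, Tyms and Ccne1 were not called: Rrm2 was at -0.10 and 0.19, Tyms at 0.07 and 0.27, and Ccne1 at 0.13 and 0.12. Mcm2 did not pass in either, at 0.38 ± 0.15 and 0.38 ± 0.15 (adjusted p = 0.0661 and 0.0673).

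Of the mitosis genes, Mki67 was at 5.12 and 5.33 against 6.17 and 6.35 in the embryo, a difference of 1.04 ± 0.14 (limma adjusted p = 0.000214), and differed by 0.89 ± 0.14 in the yolk sac (adjusted p = 0.00055). Nusap1, a microtubule protein of the spindle, differed by 1.06 ± 0.22 and 0.82 ± 0.22, Mad2l1 by 0.78 ± 0.17 and 1.05 ± 0.17, and Ccnb2 by 0.55 ± 0.15 and 0.98 ± 0.15. The groups did not overlap for any of these 4 genes in either tissue, which goes with their calls and is no further support. In the yolk sac Aurkb, Bub1, Bub1b, Birc5, Cenpa and Cdk1 were called as well, Bub1 at 0.82 ± 0.16 and Cdk1 at 0.56 ± 0.19. Aurkb was not well above background in either group there, so no fold is given for it. Ccnb1 at 0.54 and 0.53, Top2a at 0.24 and 0.40, Cdc20 at -0.04 and 0.11, and Plk1 at 0.28 and 0.32 did not pass.

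CD45+ control cells differed from CD45- control cells in all 14 endothelial genes, which were lower, and in all 12 leukocyte genes and 11 of 12 macrophage genes, which were higher, in both tissues. The part of this in the member values was not tested. Detected-probe scaling moved the share of higher calls over all genes from 54.6% to 44.1% in the embryo and from 58.9% to 43.9% in the yolk sac, and the median of all genes to -0.12 and -0.07. Above the median of all genes the replication genes stood at 0.53 and 0.64 and the mitosis genes at 0.26 and 0.39. After quantile normalization 10 replication genes were called in the embryo, and 4 mitosis genes in the yolk sac, where detected-probe scaling called 6. Fitted on the 4 arrays compared alone, 2 replication and 0 mitosis genes were called in the embryo and 11 and 5 in the yolk sac. The mitosis count was 7 without embryo CD45- control replicate 2, and in the yolk sac it was 6 without CD45- control replicate 1 and 5 without CD45+ control replicate 1.

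**Figure D4:**
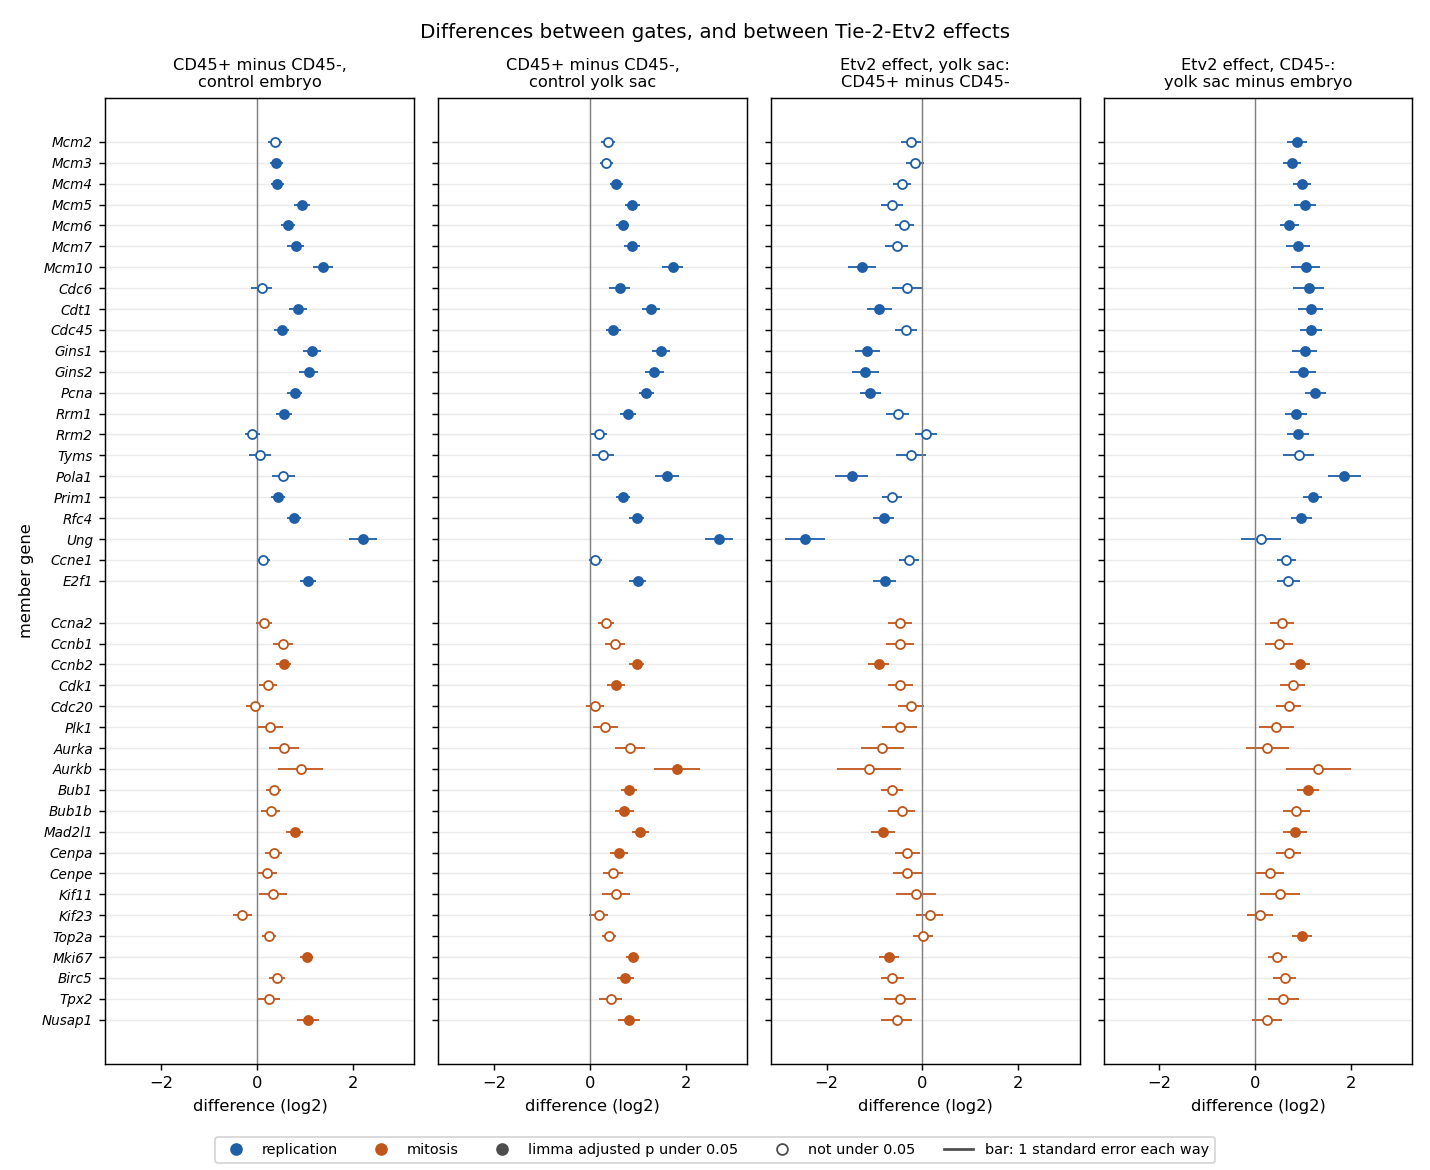
Differences (x axis, log2) for each of 42 members (y axis) between CD45+ and CD45- control cells of each tissue (the panels on the left), between the Tie-2-Etv2 effects of the yolk sac gates (the next panel) and between the effects in yolk sac and embryo CD45- cells (the rightmost panel); bars are 1 standard error each way and filled dots passed at a limma adjusted p of 0.05. Ung lies far from the other members at 2.21 and 2.70 between gates and at -2.46 between the effects of the yolk sac gates.

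Further genes of the same processes were followed as lists. Of 44 other replication genes 36 rose and none fell with the transgene in yolk sac CD45- cells, with a median of 1.02, and 27 rose in CD45+ cells, with a median of 0.57. Dut, which keeps uracil out of DNA by splitting its nucleotide, rose by 1.73 ± 0.15 in CD45- and 2.07 ± 0.15 in CD45+ cells, from 2.77 and 2.69 to 4.88 and 4.73 in the latter (limma adjusted p = 1.49e-05 and 1.11e-05). It was also the only gene of that list called in the embryo, where it rose by 0.94 ± 0.15 in CD45+ cells (adjusted p = 0.00644). Fen1, the flap nuclease of lagging-strand synthesis, rose by 1.61 ± 0.23 in CD45- cells, and Clspn, an adaptor of the replication checkpoint, by 1.34 ± 0.20 in CD45+ cells. Of 45 other mitosis genes none fell, with medians of 0.74 in CD45- and 0.30 in CD45+ cells. In these gates 28 and 13 of them rose, against 26.1% and 18.1% of all genes. Examples are Spc24 of the outer kinetochore, at 1.62 and 1.02, the motor Kif15 at 1.61 in CD45- cells, and Cks2, a partner of Cdk1, at 1.21 in CD45+ cells.

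Between control gates 14 other replication genes were higher and 1, Dut (-0.44), was lower in the CD45+ cells of the embryo, and 21 were higher and 1, Cdc7 (-0.76), lower in the yolk sac. Tk1, thymidine kinase, was higher by 0.99 and 1.24, and the clamp loader subunit Rfc5 by 1.08 in the embryo. Of the other mitosis genes 12 were higher and 1 lower in the embryo, and 19 higher and none lower in the yolk sac. Against 20.0% and 22.6% of all genes higher in these comparisons, 12 of 45 was near the background in the embryo. Incenp, of the chromosomal passenger complex, was higher by 1.28 and 1.56, Dlgap5 by 1.54 in the embryo, and Fbxo5, an inhibitor of the anaphase-promoting complex, was lower there, at -0.78.

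The genes that control entry into the cycle did not move as 1 block. In yolk sac cells the D-type cyclins, the partners of Cdk4 and Cdk6, differed in direction. Ccnd1 fell in both gates, from 5.12 and 4.88 to 2.23 and 2.93 in CD45- cells (-2.42 ± 0.26, limma adjusted p = 6.64e-05) and from 4.40 and 3.96 to 1.02 and 1.46 in CD45+ cells (-2.94 ± 0.26, adjusted p = 3.2e-05). Ccnd3 rose in both, by 0.70 ± 0.24 and 1.61 ± 0.24 (adjusted p = 0.0363 and 0.000571), though in CD45- cells it kept its call in only 8 of 15 alternatives. Ccnd2 went in opposite directions. It fell from 3.42 and 3.64 to 1.73 and 1.83 in CD45- cells (-1.75 ± 0.27) and rose from -0.13 and 0.88 to 2.42 and 2.23 in CD45+ cells (1.95 ± 0.27), a difference between gates of 3.70 ± 0.38 (adjusted p = 0.000124) that held in all 18 alternatives.

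In the list of 10 G1 cyclins, kinases and Myc genes, 5 rose and 2 fell in CD45- cells, and 7 rose and 2 fell in CD45+ cells. Beside 15.8% and 14.4% of all genes lower in these comparisons, the falls were near the background. Of all genes 26.1% and 18.1% rose. Cdk6 was not well above background in CD45- controls and was at least 4.18-fold higher in transgenic CD45- cells (limma adjusted p = 0.000176). Mycl fell in CD45+ cells, where it was not well above background in transgenic cells, and was at least 4.29-fold lower (adjusted p = 0.0434, a call kept in 6 of 14 alternatives). Mycn rose by 0.99 ± 0.35 in CD45- cells, with its call kept in 8 of 15 alternatives, and from -1.08 and -0.23 to 2.70 and 3.19 in CD45+ cells (3.60 ± 0.35, adjusted p = 4.91e-05). In the embryo, where no member passed, Ccnd3 and Mycn rose in CD45+ cells by 1.40 ± 0.24 and 1.66 ± 0.35 (adjusted p = 0.0109 and 0.0308). Between control gates 1 gene of the list was higher and 4 lower in CD45+ cells of each tissue. The shares of all genes higher and lower were 20.0% and 16.6% in the embryo and 22.6% and 15.8% in the yolk sac. Ccnd2 was at -1.82 and -3.15 and Mycn at -3.54 and -3.13. Replication genes were higher there, so these cyclins and Mycn ran opposite to them in that comparison.

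Of 15 CDK inhibitors, pocket proteins and related brakes, 5 rose and 3 fell in yolk sac CD45- cells and 2 rose and 3 fell in CD45+ cells. Of all genes 26.1% rose and 15.8% fell in the former and 18.1% and 14.4% in the latter, so these counts were near the background. Cdkn1c, which encodes the inhibitor p57, fell from 6.95 and 6.45 to 4.33 and 4.44 in CD45- cells (-2.32 ± 0.53, limma adjusted p = 0.00579), and was lower in CD45+ than in CD45- controls of both tissues, at -3.64 (embryo) and -4.08 (yolk sac). Cdkn2c, of the INK4 inhibitors of Cdk4 and Cdk6, fell in both gates, at -2.07 ± 0.46 and -3.68 ± 0.46, while its relative Cdkn2d rose by 2.33 ± 0.28 and 1.48 ± 0.28. In control cells of the embryo Cdkn2c was higher with CD45 by 2.84, as was the pocket protein Rbl2 in each tissue (2.07 and 2.19). Tob1, an antiproliferative protein, was at -2.09 and -1.63 for the transgene, both called lower, and Ccng2, a cyclin linked to arrest, rose by 0.79 and 1.17. Rb1, the retinoblastoma protein, rose from 1.13 and 1.08 to 3.22 and 2.85 in CD45- cells (1.92 ± 0.19) and fell in CD45+ cells (-0.70 ± 0.19, a call kept in 11 of 15 alternatives), a difference between gates of -2.63 ± 0.26 (adjusted p = 0.000118). Cdkn1a and Cdkn1b, which encode p21 and p27, did not pass for the transgene in any population: in yolk sac CD45- cells they were at -0.0042 and -0.62 ± 0.28.

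Among 17 E2F, DREAM and MuvB genes, 11 rose and 2 fell in yolk sac CD45- cells and 9 rose and 1 fell in CD45+ cells. The shares of all genes were 26.1% and 15.8% in the former and 18.1% and 14.4% in the latter. The rises were thus above the background and the falls were not. E2f3 rose by 1.50 ± 0.37 and 1.92 ± 0.37, its dimer partner Tfdp1 by 1.41 ± 0.15 and 1.22 ± 0.15, and E2f4 by 1.14 ± 0.15 and 0.91 ± 0.15. Mybl2, the B-Myb that binds MuvB, rose from 3.87 and 3.41 to 5.18 and 4.92 in CD45- cells and from 3.70 and 3.69 to 5.37 and 5.28 in CD45+ cells, by 1.41 ± 0.20 and 1.63 ± 0.20 (limma adjusted p = 0.000325 and 0.00018). Foxm1, the other activator of mitosis genes, did not pass in either, at 0.29 ± 0.15 and -0.29 ± 0.15 (adjusted p = 0.152 and 0.166). Between control gates Foxm1 was higher in CD45+ cells by 0.59 ± 0.15 and 0.76 ± 0.15, and Mybl2 was at 0.12 ± 0.20 and 0.05 ± 0.20 and did not pass. E2f8, a repressor of the family, rose by 1.35 and 1.47, and the MuvB subunit Lin54 was higher in CD45+ controls by 0.92 and 1.15, while E2f7 was lower there, at -1.52 and -0.98. E2f5 fell in CD45- cells (-0.87), and Mybl1, the A-Myb gene, was not well above background in transgenic CD45- cells and was at least 1.16-fold lower. In embryo CD45+ cells E2f2 and Tfdp1 rose by 0.77 and 0.68.

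**Figure D5:**
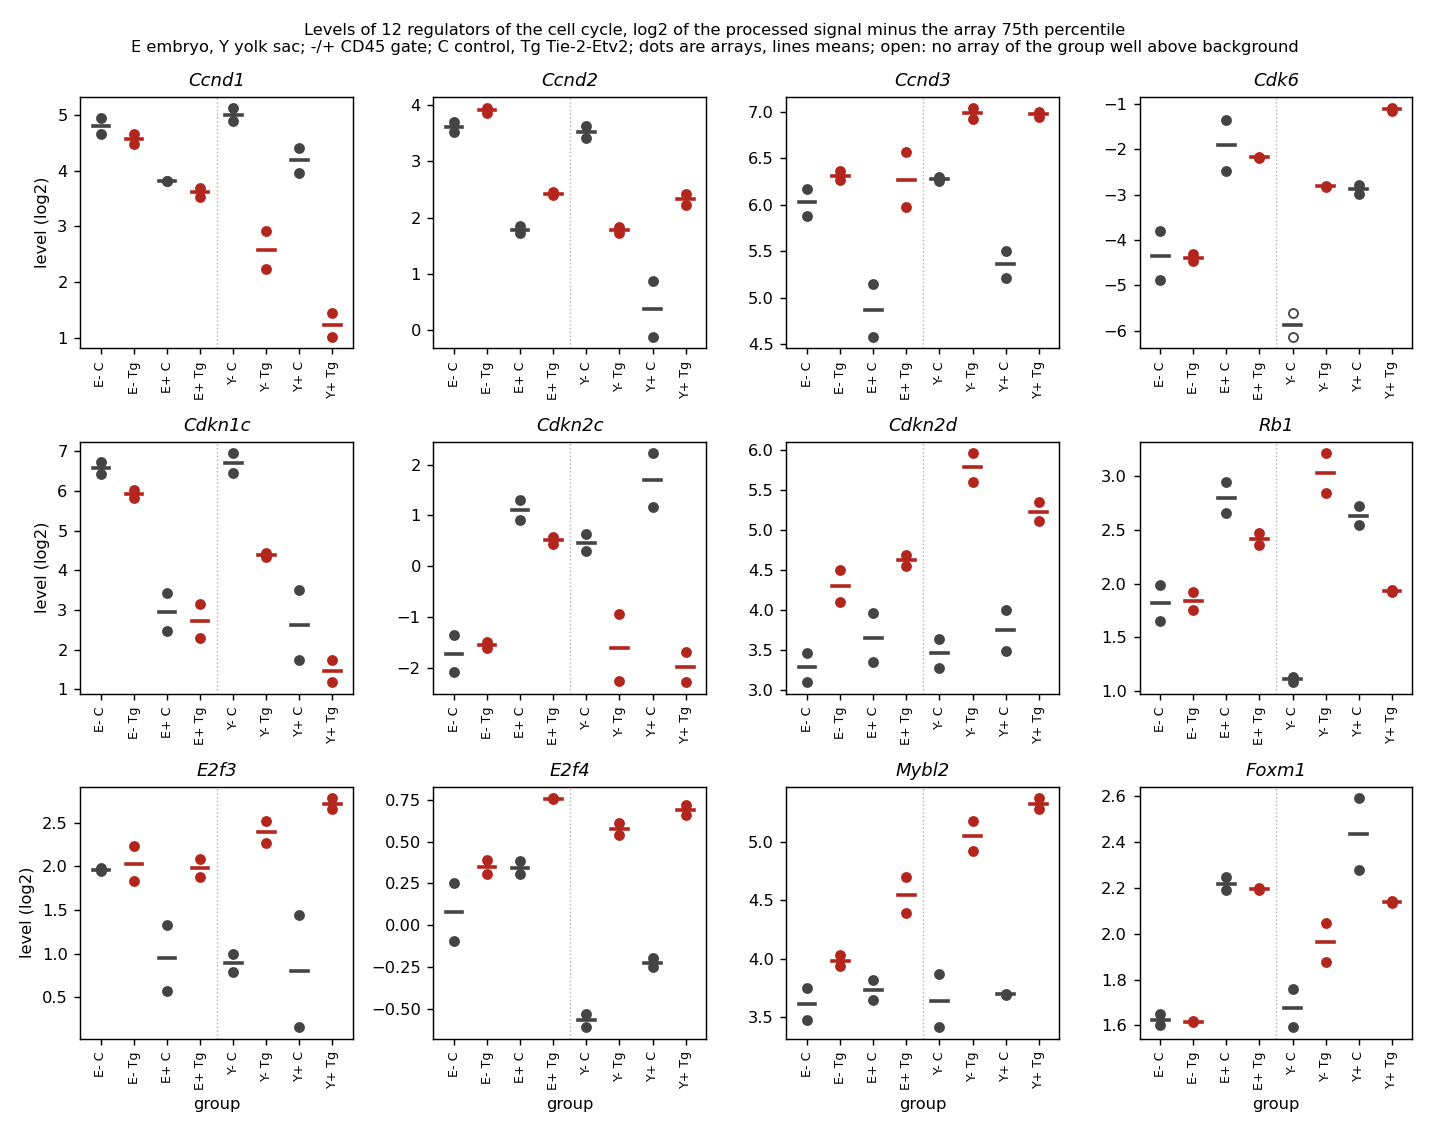
Levels of 12 cell cycle regulators on each array (y axis, log2 of the processed signal minus the 75th percentile of the array), by group (x axis); dots are arrays, lines are means of 2, red is Tie-2-Etv2, grey is control. Ccnd1 falls and Mybl2 rises with the transgene in both yolk sac gates, while Ccnd2 and Rb1 go in opposite directions in the gates.

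For 10 members the array held more than 1 probe, and the brightest stood for the gene. The other 14 probes of these genes had the sign of the brightest in all 14 cases for the transgene in yolk sac CD45- cells, where 13 of them were called, and in 12 of 14 in yolk sac CD45+ cells, where 3 were called. Between control gates they did so in 11 of 14 in the embryo and 13 of 14 in the yolk sac. No other probe was called in the opposite direction in any comparison. The probes that disagreed in sign belonged to Birc5 and Cdk1 in yolk sac CD45+ cells, to Cdc6, Cdk1 and Tpx2 between embryo gates and to Tpx2 between yolk sac gates, and for none of these was the brightest probe called.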

How the data were processed

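RNA of VE-cadherin-positive cells, sorted at E11.5 and extracted with a Qiagen microelute kit, was labelled with Cy3 by the Agilent Low Input Quick Amp kit and read on 16 1-colour Agilent arrays, per the labels' protocols. Agilent Feature Extraction 10.7 produced the deposited scanner files, per the submitters' processing notes. The processed signal used here is an intensity that this software has already background-corrected, per the file headers.

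Each array was scaled as log2 of the processed signal minus its 75th percentile, control spots and outlier spots were left out, and spots of a probe were averaged. Probes that some group showed well above background on each of its 2 arrays were kept (34126 probes; 87 were lost to outlier spots), and the brightest of a gene's probes was used, for 24578 genes in all. Signal over background, and the number of arrays, limit the precision. Genes were named by RefSeq accession and otherwise by the symbol in the files, and members by the file's gene name. All 8 groups entered 1 limma fit (limma 3.58.1, R 4.3.3; lmFit and eBayes, 8 residual and 2.29 prior degrees of freedom), with contrasts for the transgene in each population, for the gates in controls, and for differences between these effects. Summaries used Python 3.11.15 with pandas 2.3.3, and the fit was tested on simulated data.

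The authors' deposited value table holds log2 values of the same arrays. Its columns follow the scanner values (correlation at least 0.999979) with medians of -0.183 to 0.175, which sets its scale and direction, while the reason for the constant that centres each column is unknown. It served as an alternative only.

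Members and gene lists were chosen with earlier results of these data known. Genes are named by this rule: per comparison the 3 replication and 3 mitosis members with the largest called difference in each direction, 8 members always, up to 2 genes per direction of each other cell cycle list, and 3 members per direction in differences of effects. Further members were named after their values were seen, to account for each role. Alternatives covered the scaling, background correction, dim-probe filter, choice of probe, prior, samples fitted, replicate block and leaving out each array.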

Additional observations from a re-analysis of the deposited data

Results flagged for a closer look

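The transgene's effect differed between gates or tissues, by a limma contrast of the effects themselves, for the members and named genes below, each given as the log2 difference of effects. In the yolk sac the effect in CD45+ cells minus that in CD45- cells was -2.46 for Ung, -1.48 for Pola1, -1.27 for Mcm10, -1.19 for Gins2, -1.15 for Gins1, -1.09 for Pcna, -0.90 for Cdt1, -0.81 for Rfc4 and -0.79 for E2f1 among replication members. Among mitosis members it was -0.92 for Ccnb2, -0.82 for Mad2l1 and -0.70 for Mki67. Other cell cycle genes were Tk1 at -1.41, Incenp at -1.16, Rfc5 at -0.85, Rb1 at -2.63, Mycn at 2.61 and Ccnd2 at 3.70. Of the markers, Csf1r differed by -2.84 and Cdh5 by 4.27. In the embryo the same contrast was 2.36 for Cdh5.

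In CD45- cells the effect in the yolk sac minus that in the embryo was 1.86 for Pola1, 1.26 for Pcna, 1.20 for Prim1, 1.18 for Cdc45, 1.16 for Cdt1, 1.11 for Cdc6, 1.06 for Mcm10, 1.04 for Mcm5, 1.04 for Gins1 and 1.00 for Gins2. It was 0.98 for Mcm4, 0.96 for Rfc4, 0.90 for Mcm7, 0.90 for Rrm2, 0.87 for Mcm2, 0.85 for Rrm1, 0.77 for Mcm3 and 0.72 for Mcm6. The mitosis members were Bub1 at 1.11, Top2a at 0.98, Ccnb2 at 0.93 and Mad2l1 at 0.83.

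Other genes with a higher effect in the yolk sac CD45- cells were Rb1 (1.91), Kif15 (1.57), Cdkn2d (1.31), Spc24 (1.30), Dut (1.27), E2f8 (1.26), Ccng2 (1.16), Fen1 (1.14), Clspn (1.12), Tfdp1 (1.05), Mybl2 (1.04), Rfc5 (1.01) and E2f4 (0.88). Cdkn2c (-2.24), Ccnd1 (-2.19), Ccnd2 (-2.05) and Tob1 (-1.75) were lower. In CD45+ cells the contrast of tissues was 1.14 for Dut, -2.47 for Csf1r, -2.73 for Ccnd1 and -3.07 for Cdkn2c, and no member passed it. Ptprc, in both contrasts of yolk sac CD45- cells, and Cdk6, in that of the tissues, also passed but were not well above background in a group compared, so no size is given. Most of these values rest on the same yolk sac control arrays, and tissue cannot be told apart from slide.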

How the results depend on the processing

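No called member changed sign under another scaling, and over all alternatives to a member's test 6157 stayed on the same side of the threshold, 383 lost the call and 86 gained it. The sign turned in 249 of the 6157, all of them values called in neither fit. Counts that moved by over 1.5 times were these, and the cause was not tested. In embryo CD45+ cells replication genes, 0 higher and 0 lower, were 1 and 1 after quantile normalization, 2 and 1 with normexp and with a trended robust prior, and 2 higher with a stricter filter, with 0 to 1 higher when an array was left out. In yolk sac CD45- cells the 15 mitosis genes were 9 after quantile normalization. In yolk sac CD45+ cells the 13 replication genes were 5 and the 4 mitosis genes 1 when only the groups compared were fitted, and leaving out an array gave 1 to 6 mitosis genes. For the gates of embryo controls, 16 replication genes were 10 after quantile normalization and 2 with only the groups compared, and 4 mitosis genes were 0 with the latter and 3 to 7 without an array. For the yolk sac gates, 17 replication genes were 11 with only the groups compared, and 10 mitosis genes were 4 after quantile normalization, 6 with detected-probe scaling, 5 with only the groups compared and 5 to 13 without an array. The 12 members lower in the difference between yolk sac gates were 6 after quantile normalization, 5 with detected-probe scaling, 7 without a filter, 7 with only the groups compared, 7 with only the yolk sac slide and 5 to 11 without an array. The 22 members higher in the difference between tissues were 8 after quantile normalization, 8 with detected-probe scaling, 12 without a filter, 9 with only the groups compared and 6 to 26 without an array. In CD45+ cells 0 to 1 members were lower between tissues without an array.

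With the replicate number as a block, 2 replication genes were higher in embryo CD45+ cells, and no other of these counts moved by over 1.5 times. Whether the replicate numbers pair the samples was not settled. Deviations of same-numbered arrays correlated at -0.05 to 0.39 over 28 pairs of groups (median 0.08), and 8 were over 0.1. Signal near background limits Ccne2 and Aurkb, which the arrays of the yolk sac could only bound or not test.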
